A study of Mus musculus with 2 samples.

Results

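Class I antigen presentation was represented by 10 genes, B2m, H2-K1, H2-D1, H2-T23, H2-Q6, H2-Q7, Psmb8, Psmb9, Tap1 and Nlrc5, of the 23521 genes listed in both expression tables. They were selected on their measured ratios between these libraries, since most had lower levels in the aged than in the adult one, so their ratios between ages are a description and carry no test. The aged library came from 6 pooled FVB/N Prox1-GFP mice of 93 weeks, and the adult library from 6 pooled FVB/N Prox1-GFP mice of 12 weeks. All mice of both groups carry the Prox1-GFP reporter, which marks lymphatic endothelium with green fluorescent protein, and the labels name no treatment for either library. Afferent lymphatics of the submandibular nodes were harvested, cells of this superficial cervical system were sorted by flow cytometry, and their RNA was read by droplet single-cell sequencing of 3′ ends. The question the design addresses is how these tissues differ between aged and adult mice. With 1 pooled library per age, no test between ages was possible, and differences between mice, between libraries and between ages cannot be told apart.

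Class I molecules show fragments of a cell's own proteins to CD8 T cells and to natural killer cells. The proteasome cuts the proteins, the Tap1 and Tap2 transporter moves the peptides into the endoplasmic reticulum, and a heavy chain (such as H2-K1 or H2-D1) binds a peptide together with the light chain B2m. Under interferon, cells swap the standard catalytic subunits of the proteasome for inducible ones (Psmb8 for Psmb5, Psmb9 for Psmb6, Psmb10 for Psmb7), and Nlrc5 is a transactivator that raises transcription of class I genes in mouse and human cells.

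The aged table held 13969 cells, of which 6977 carried a barcode that was also in the adult table (95.5% of the 7308 adult barcodes). These cells were counted once, as adult, which left 6992 aged cells with 83509101 UMIs (unique molecular identifiers, 1 per captured RNA molecule) and 7308 adult cells with 90875406 UMIs. Median depth was 11664 UMIs per aged cell and 12087.5 per adult cell. Rows of the aged table carry numbers only, and gene names were taken from the adult table row by row; over the shared cells the members' levels in both tables correlated at r = 0.47 to 0.85, against a median of 0.0091 for all genes after a shift by 1 row. The cells were grouped without the class I, class II and interferon genes into 31 clusters and 4 named classes. Lymphatic endothelial-like cells (Prox1, Lyve1, Mmrn1) numbered 96 aged and 278 adult. Blood endothelial-like cells (Flt1, Plvap, Emcn) numbered 414 aged and 623 adult. They also held lymphatic endothelial markers, at 1614 CPM aged and 1505 CPM adult, and Prox1 gave 96.7% of those UMIs. In lymphatic endothelial-like cells the same markers came to 17885 CPM aged and 23132 CPM adult. The largest blood endothelial-like cluster, led by Vwf, held 286 aged and 364 adult cells. Smooth muscle-like cells (Myh11, Acta2, Actg2) numbered 242 aged and 317 adult, and fibroblast-like cells (Pdgfra, Col1a1, Dcn) 5891 aged and 5736 adult. Unnamed clusters held 349 aged and 354 adult cells. By sex-linked genes, 2062 aged and 2788 adult fibroblast-like cells were called female and 3159 aged and 2354 adult ones male. Ptprc, the defining marker of blood leukocytes, was at 0 UMIs in the lymphatic endothelial-like, blood endothelial-like and smooth muscle-like classes of both libraries. The myeloid markers together came to between 4.05 and 12.9 CPM in the 4 aged classes, against 6.64 to 13.1 CPM in the 4 adult classes, with Cd68 giving the largest share. The markers of T and natural killer cells came to at most 86.8 CPM in aged and 73.7 CPM in adult classes, and Cd3e alone gave 99.7% of their UMIs in fibroblast-like cells. Smooth muscle-like cells also held fibroblast markers, which summed to 5609 CPM in aged and 4679.6 CPM in adult cells of that class, and 110 of 242 aged and 154 of 317 adult cells had 3 or more markers of another class. Without those cells 3 members had enough UMIs in that class, and all 3 were lower in the aged library. The part of leukocytes in the results was not tested. CPM is the usual depth-scaled unit, the UMIs of a gene divided by all UMIs of its class in that library and multiplied by one large constant.

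The stretches of promoter that hold known class I control motifs are shown for 4 of the 5 heavy chain genes (all but H2-T23), for B2m and for Tap1, because H2-Q7 departed from the other members between ages while its sequence here is close to that of H2-Q6. The sequences are RefSeq's for the C57BL/6J reference (build GRCm38.p6), read 5′ to 3′ along each gene's strand; capitals mark motif matches. The mice are of strain FVB/N, which carries another H2 haplotype than this reference, so the letters describe the reference and not the animals. RefSeq windows of 250 bases before to 50 after the gene start were matched for 9 of the 10 members, all but Nlrc5.
B2m: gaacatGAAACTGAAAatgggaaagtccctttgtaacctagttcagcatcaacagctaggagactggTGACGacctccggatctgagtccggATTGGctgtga
H2-K1: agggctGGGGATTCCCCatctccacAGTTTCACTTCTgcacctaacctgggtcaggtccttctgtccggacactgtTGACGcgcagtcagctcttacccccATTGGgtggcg
H2-D1: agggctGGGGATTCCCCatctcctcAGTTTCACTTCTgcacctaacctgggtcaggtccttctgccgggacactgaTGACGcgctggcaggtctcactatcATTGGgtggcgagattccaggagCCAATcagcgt
H2-Q6: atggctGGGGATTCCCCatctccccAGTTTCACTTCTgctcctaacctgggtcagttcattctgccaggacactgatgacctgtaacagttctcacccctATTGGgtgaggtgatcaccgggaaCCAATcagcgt
H2-Q7: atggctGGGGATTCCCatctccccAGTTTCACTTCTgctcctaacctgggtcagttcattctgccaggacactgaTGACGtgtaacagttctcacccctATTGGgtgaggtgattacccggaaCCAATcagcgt
Tap1: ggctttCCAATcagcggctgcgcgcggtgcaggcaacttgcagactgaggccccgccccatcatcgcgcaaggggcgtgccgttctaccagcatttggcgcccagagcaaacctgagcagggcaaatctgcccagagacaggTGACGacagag
The B2m stretch lies at chr2:122147542-122147644 (plus strand). Those of the heavy chain genes lie at chr17:34000353-34000464 (minus strand) for H2-K1, chr17:35262917-35263051 (plus) for H2-D1, chr17:35424671-35424805 (plus) for H2-Q6 and chr17:35439016-35439149 (plus) for H2-Q7. The Tap1 stretch lies at chr17:34187328-34187480 (plus). The Psmb9 window reads the other strand of the same DNA: both windows share 275 bases, and the gene starts are 226 bases apart.

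Motifs were searched on both strands, so that ATTGG counts as CCAAT. The class I interferon consensus, whose letters are the last of the long capital runs in the H2-K1 line, was found in H2-K1, H2-D1, H2-Q6 and H2-Q7 and in 0.0335% of 32851 promoter windows of the same length. The kappa B motif, the capitals just before it in that line, was found in H2-K1, H2-D1 and H2-Q6 and in 0.0304% of windows, and H2-Q7 holds it without the last C, a shorter form that lies within the longer motif and was found in 0.107% of windows. The cyclic AMP response core TGACG, bound by Creb1 and Atf1, which act beside Nlrc5 at class I promoters, was found in B2m, H2-K1, H2-D1, H2-Q7, Psmb9 and Tap1 and in 20.8% of windows. CCAAT, bound by the Nfya, Nfyb and Nfyc complex, was found in the windows of all 9 genes except Psmb8 and in 37.4% of windows. These matches describe letters only. A core of the interferon-stimulated response element, the capitals that open the B2m line with the middle pair of bases free, was found in B2m and H2-T23 and in 3.44% of windows. Psmb8 held TTCNNNGAA, the gamma-activated site (8.30% of windows).

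The members were lower in the aged library in every class, with H2-Q7 as the exception in fibroblast-like cells and, where a cluster of 16 aged and 19 adult cells was kept, in smooth muscle-like cells. A gene is called lower or higher where aged and adult CPM, each after adding 1 CPM, differ by 1.5-fold or more, and ratios are log2 of aged over adult. No member was called higher in any class. In lymphatic endothelial-like cells 10 of 10 members were lower (9.32% of the 6083 genes measured there were lower and 7.45% higher), and in blood endothelial-like cells 10 of 10 (5.04% of 7207 lower, 4.55% higher). In smooth muscle-like cells 9 of 10 were lower (10.5% of 7682 genes lower, 3.81% higher), of which 6 were among the 7 members found in 10% or more of the cells of a library, the rule for a measured gene. In fibroblast-like cells 9 of 10 were lower (3.76% of 8783 genes lower, 1.79% higher). Since the same ratios chose the members, nothing is read from these counts. The median log2 ratio over the members was -1.15, -1.45, -1.26 and -0.90 in the 4 classes in that order, beside medians over all measured genes of 0.04, 0.03, -0.05 and -0.04. Intervals below are exact 95% intervals for counting error alone, computed without the added CPM, so the ratio of a rare gene can lie outside its interval.

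**Figure D1:**
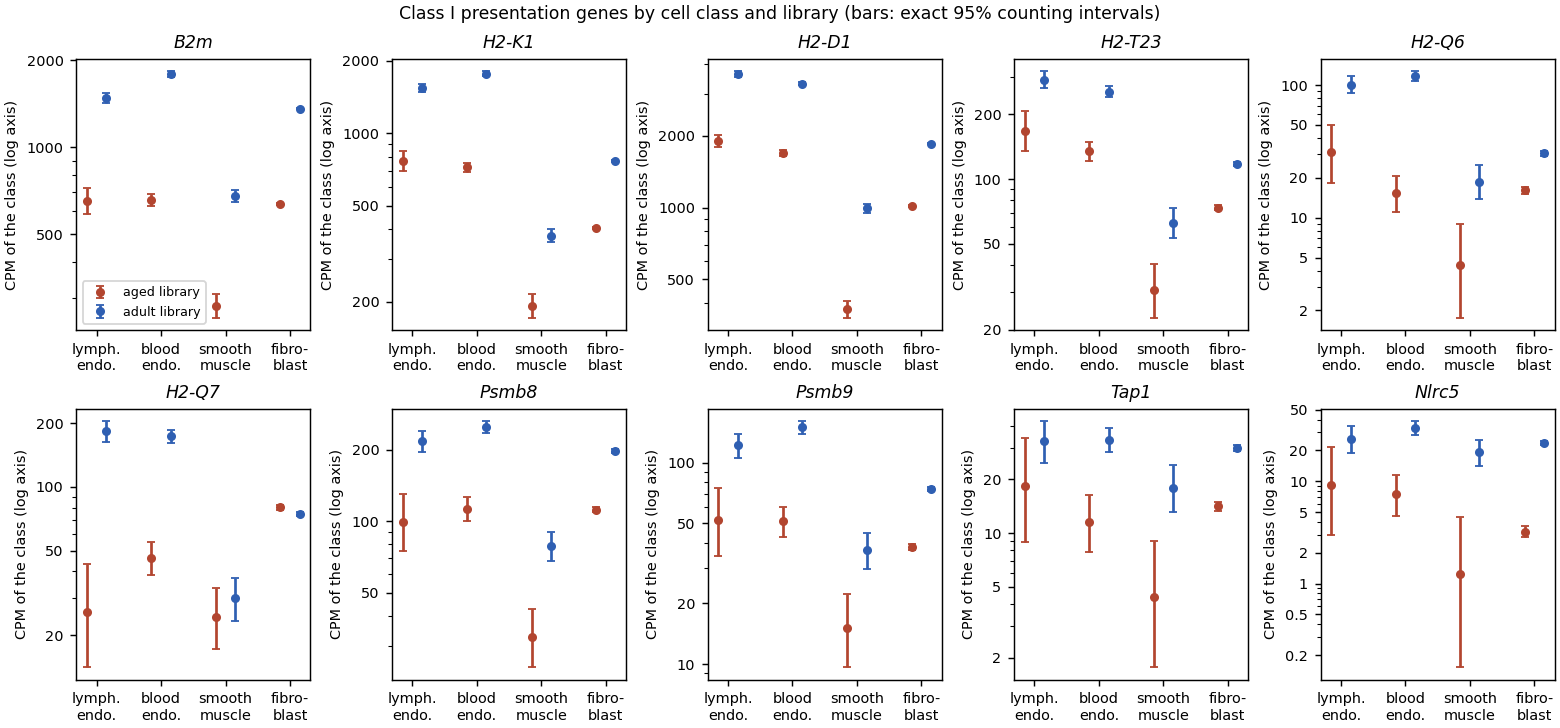
Level of each member in CPM of its cell class (log axis), with the aged library left and the adult library right in each class; bars are exact 95% Poisson intervals for counting error. The aged points lie below the adult points in all panels and classes except for H2-Q7 in fibroblast-like cells, at 80.3 CPM aged and 74.6 CPM adult.

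The light chain B2m, which every class I molecule needs, was at 652 CPM in aged and 1483 CPM in adult lymphatic endothelial-like cells. Blood endothelial-like cells held 657 CPM aged and 1794 CPM adult, smooth muscle-like cells 282 CPM aged and 681 CPM adult, and fibroblast-like cells 638 CPM aged and 1361 CPM adult. The aged level was lower in each class, and no counting interval of an aged level reached that of its adult level. The log2 ratios were -1.18 (-1.35 to -1.02), -1.45 (-1.52 to -1.38), -1.27 (-1.42 to -1.12) and -1.09 (-1.11 to -1.08) in that order. Among adult classes B2m was highest in blood endothelial-like cells, 0.40 log2 units above fibroblast-like cells (0.37 to 0.43). In the aged library the same difference was 0.04 (-0.03 to 0.11) and that of lymphatic endothelial-like over fibroblast-like cells 0.03 (-0.12 to 0.18), so the levels of those 3 classes were not told apart by counting error.

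The classical heavy chains, which present to CD8 T cells, were lower in all 4 classes. H2-K1 was at 768 CPM in aged and 1545 CPM in adult lymphatic endothelial-like cells, 721 CPM aged and 1770.0 CPM adult in blood endothelial-like cells, 192 CPM aged and 376 CPM adult in smooth muscle-like cells, and 404 CPM aged and 766 CPM adult in fibroblast-like cells. H2-D1 was at 1904 CPM aged and 3629.9 CPM adult, 1701 CPM aged and 3306 CPM adult, 375 CPM aged and 992 CPM adult, and 1014 CPM aged and 1849 CPM adult in the same classes in that order. Both were lowest in smooth muscle-like cells of either library and were higher in the endothelial classes than in fibroblast-like cells of either library. In aged cells H2-K1 stood 0.93 log2 units (0.79 to 1.07) above the fibroblast-like level in lymphatic endothelial-like cells, and in adult cells 1.01 (0.96 to 1.07). For blood endothelial-like over fibroblast-like cells it was 0.84 (0.77 to 0.90) in aged and 1.21 (1.18 to 1.24) in adult cells, so the step was smaller in the aged library for blood but not, beyond counting error, for lymphatic endothelial-like cells.

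H2-T23 encodes the heavy chain of Qa-1, which carries leader peptides of other class I chains to receptors of natural killer cells. It was at 168 CPM in aged and 290.3 CPM in adult lymphatic endothelial-like cells and at 73.7 CPM aged and 117 CPM adult in fibroblast-like cells, with log2 ratios of -0.78 (-1.13 to -0.46) and -0.66 (-0.72 to -0.62). These were the members' smallest called differences in both classes. In blood endothelial-like cells the ratio was -0.92 (-1.09 to -0.75), and in smooth muscle-like cells -1.01 (-1.52 to -0.56).

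H2-Q6 and H2-Q7 belong to the Qa-2 family of nonclassical heavy chains and differed from each other. H2-Q6 was at 15.3 CPM in aged and 117 CPM in adult blood endothelial-like cells (41 and 564 UMIs), a log2 ratio of -2.85 (-3.43 to -2.48), against 16.1 CPM aged and 30.5 CPM adult in fibroblast-like cells, a ratio of -0.88 (-1.02 to -0.82). Blood endothelial-like over fibroblast-like cells differed by -0.07 log2 units (-0.56 to 0.37) in the aged and by 1.90 (1.80 to 2.07) in the adult library, and lymphatic endothelial-like over fibroblast-like cells by 0.92 (0.18 to 1.65) aged and 1.69 (1.495 to 1.95) adult. H2-Q7 was at 25.9 CPM in aged and 183 CPM in adult lymphatic endothelial-like cells, from 14 and 318 UMIs, a ratio of -2.78 (-3.71 to -2.06). In smooth muscle-like cells H2-Q7 was at 24.4 CPM aged and 29.9 CPM adult, a ratio of -0.28 (-0.89 to 0.28). That value depended on a cluster led by Ctnna3 with 16 aged and 19 adult cells, where H2-Q7 was at 84.0 CPM aged and 40.8 CPM adult; without clusters under 50 cells the ratio of the class was -1.31. Blood endothelial-like cells held 46.1 CPM of H2-Q7 aged and 173 CPM adult, a ratio of -1.89 (-2.19 to -1.63). In fibroblast-like cells it was at 80.3 CPM aged and 74.6 CPM adult, a ratio of 0.11 (0.06 to 0.16) that is under 1.5-fold and turned below 0, to between -0.02 and -0.01, in female cells alone and with clusters weighted equally. The order of the classes therefore differed: the aged library had its highest H2-Q7 level in fibroblast-like cells, where lymphatic endothelial-like over fibroblast-like cells gave -1.60 log2 units (-2.51 to -0.89), and the adult library had its highest in lymphatic endothelial-like cells, where that difference was 1.29 (1.13 to 1.46).

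Reads of near-identical H2 genes can be split or lost in counting, and how the authors treated them is not given in the sources used here. In the GENCODE transcripts of build GRCm38 (release M21), 7.72% to 56.6% of the 90-base words in the last 400 bases of H2-Q6 transcripts were shared with other genes, 16.1% for H2-T23 and at most 0.643% for H2-K1. The shares were 0 for the other 7 members, H2-Q7 among them. The H2-Q6 words were shared with transcripts of H2-Q7, H2-D1, H2-K1 and others. Those of H2-T23 were shared with Hook2 and Rab33b and with no H2 gene. The H2-Q6 and H2-T23 levels are therefore uncertain, and the part of the strain's own H2 sequence in any of the H2 levels was not tested.

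The inducible proteasome subunits Psmb8 and Psmb9 were lower in all 4 classes. Psmb8, which replaces Psmb5, was at 99.7 CPM in aged and 217 CPM in adult lymphatic endothelial-like cells, 113 CPM aged and 250.1 CPM adult in blood endothelial-like cells, 32.5 CPM aged and 78.5 CPM adult in smooth muscle-like cells, and 112 CPM aged and 198 CPM adult in fibroblast-like cells. Its log2 ratios were -1.11 (-1.56 to -0.71), -1.14 (-1.33 to -0.96), -1.25 (-1.74 to -0.82) and -0.81 (-0.86 to -0.78). Psmb9, which replaces Psmb6, had ratios of -1.22 (-1.86 to -0.66), -1.53 (-1.83 to -1.29), -1.23 (-2.001 to -0.63) and -0.94 (-1.02 to -0.90) in the same order. Psmb9 was at 15.01 CPM in aged and 36.7 CPM in adult smooth muscle-like cells, and at 38.1 CPM aged and 74.0 CPM adult in fibroblast-like cells.

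Tap1, the transporter subunit whose gene lies head to head with Psmb9, was at 14.1 CPM in aged and 29.96 CPM in adult fibroblast-like cells, a log2 ratio of -1.03 (-1.19 to -0.98). In blood endothelial-like cells it was at 11.5 CPM aged and 33.5 CPM adult, a ratio of -1.46 (-2.14 to -0.98). Only 10 aged UMIs were counted in lymphatic endothelial-like cells, and there the interval of its ratio of -0.80 ran from -1.97 to 0.15. A difference of Tap1 in that class was thus not resolved at this depth.

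Nlrc5, the transactivator, had the ratio furthest from 0 of the 10 in fibroblast-like and smooth muscle-like cells. It was at 9.24 CPM in aged and 25.9 CPM in adult lymphatic endothelial-like cells (5 and 45 UMIs), 7.44 CPM aged and 33.3 CPM adult in blood endothelial-like cells (20 and 161 UMIs), 1.25 CPM aged and 19.1 CPM adult in smooth muscle-like cells (2 and 48 UMIs), and 3.23 CPM aged and 23.7 CPM adult in fibroblast-like cells (244 and 1862 UMIs). The log2 ratios were -1.40 (-3.18 to -0.16), -2.02 (-2.91 to -1.49), -3.16 (-7.02 to -2.003) and -2.55 (-3.07 to -2.68). Without the added CPM the fibroblast-like ratio was -2.88, or 7.34-fold higher in the adult library. In the adult library lymphatic endothelial-like over fibroblast-like cells gave 0.13 log2 units (-0.33 to 0.56), within counting error, and blood endothelial-like over fibroblast-like cells 0.47 (0.25 to 0.72).

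**Figure D2:**
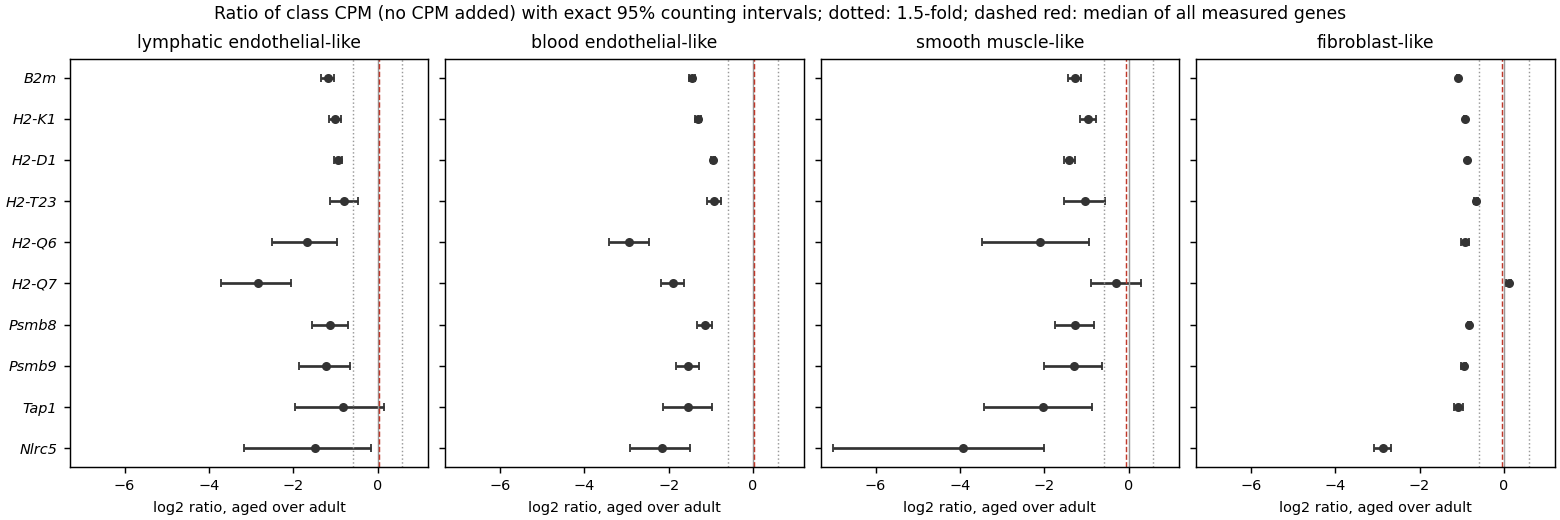
Log2 ratio of aged over adult CPM, with no CPM added, for each member in 4 cell classes; bars are exact 95% counting intervals, dotted lines mark 1.5-fold and the dashed line the median of all measured genes. All points except H2-Q7 in fibroblast-like cells lie below 0, and the Nlrc5 interval is widest in smooth muscle-like cells, where 2 aged UMIs were counted.

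The difference was also present within clusters. Of the 31 clusters, 21 held 50 or more cells of each library, 15 of them fibroblast-like, 1 lymphatic endothelial-like, 2 blood endothelial-like, 2 smooth muscle-like and 1 unnamed. B2m, H2-K1, H2-D1, Psmb8, Psmb9, Tap1 and Nlrc5 had log2 ratios below 0 in 21 of 21 clusters, H2-T23 in 20, H2-Q6 in 19 and H2-Q7 in 13. Nlrc5 was lower by 1.5-fold or more in 21 clusters, B2m in 19 and Psmb8 in 16. The B2m ratio was lowest in the blood endothelial-like cluster led by Vwf, which carries venous markers, at 577 CPM aged and 1879.7 CPM adult (-1.70, -1.80 to -1.61). It was nearest to 0 in the smooth muscle-like cluster led by Myh11 and Acta2, at 142 CPM aged and 196 CPM adult (-0.46, -0.79 to -0.14). That cluster had the lowest adult B2m level of the 21, while the other smooth muscle-like cluster, led by Actg2 and Rgs5, had 516 CPM aged and 1025 CPM adult. Among fibroblast-like clusters the B2m ratio ran from -1.61 in a shallow cluster led by 1500015L24Rik to -0.58 in the cluster led by Myoc and S100a4. In the shallow cluster the fibroblast markers averaged -2.29 log2 units relative to all other cells. That was the lowest of the clusters given this name, ahead of -0.79 in the cluster led by Ctla2a, so its fibroblast-like name is uncertain.

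In 5 fibroblast-like clusters 1 library held fewer than 50 cells, and a cluster mostly of 1 library may be that library and not a type. The cluster led by Gm56730, with 730 aged and 19 adult cells, had B2m at 657 CPM in aged and 1508 CPM in adult cells. In the cluster led by Mrgprg and Col6a5, with 319 aged and 27 adult cells, it was at 647 CPM aged and 2056 CPM adult. In the cluster led by Prg4, with 5 aged and 196 adult cells, it was at 425 CPM aged and 866 CPM adult. The clusters led by Zbtb16 (360 aged, 13 adult cells) and by Lgr5 (144 aged, 3 adult cells) had 657 CPM aged and 1306 CPM adult, and 469 CPM aged and 1046 CPM adult. B2m was thus lower in the aged cells of all 5, while Nlrc5 rested on 1 aged UMI in the Prg4 cluster and on no adult UMI in the Lgr5 cluster.

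Nlrc5 varied among fibroblast-like clusters by more than B2m. Its adult level ran from 3.85 CPM in the cluster led by Timp1 and Cpz to 69.0 CPM in the shallow cluster led by 1500015L24Rik, and its aged level from 0.729 CPM in the Timp1 and Cpz cluster to 12.1 CPM in the cluster led by Enpp2 and Bmper. In the Timp1 and Cpz cluster, Nlrc5 was at 0.729 CPM aged and 3.85 CPM adult (4 and 9 UMIs), while B2m was at 538 CPM aged and 1179.5 CPM adult. In the Enpp2 and Bmper cluster, Nlrc5 was at 12.1 CPM aged and 43.2 CPM adult, while B2m was at 645 CPM aged and 1354 CPM adult. Over all 15 fibroblast-like clusters with 50 cells of each library, B2m ran from 91.7 to 852 CPM in aged and from 281 to 1922 CPM in adult cells. The cluster with the highest adult Nlrc5 level, led by 1500015L24Rik and of uncertain name, had the lowest B2m level in both libraries. It also had the lowest level of the standard subunit Psmb5 of the 15, at 3.67 CPM aged and 5.52 CPM adult. Low levels there were thus not particular to B2m, but they were not shared by all members. H2-Q7 had its highest level of the 15 in that cluster, at 161 CPM aged and 135 CPM adult.

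H2-Q7 was lower by 1.5-fold or more in 6 of the 21 clusters and higher in 4. The highest ratio was in the fibroblast-like cluster led by Myoc and Ccn5, at 128 CPM aged and 64.8 CPM adult (0.98, 0.74 to 1.24). The clusters led by Myoc and S100a4 (105 CPM aged, 58.6 CPM adult), by Timp1 and Cpz (116 CPM aged, 68.8 CPM adult) and the unnamed cluster led by Mfap4 and Fbln7 (104 CPM aged, 67.6 CPM adult) were also higher. The lowest ratio was in the lymphatic endothelial-like cluster led by Spp1 and Prox1, at 35.2 CPM aged and 254 CPM adult (-2.81, -3.77 to -2.05). All 3 endothelial clusters with enough cells had lower H2-Q7 in aged cells. Both smooth muscle-like clusters did too, with -1.26 (-3.53 to 0.28) in the one led by Myh11, from 4 aged and 12 adult UMIs, and -0.63 (-1.80 to 0.35) in the one led by Actg2, from 10 aged and 49 adult UMIs, and both intervals include 0.

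**Figure D3:**
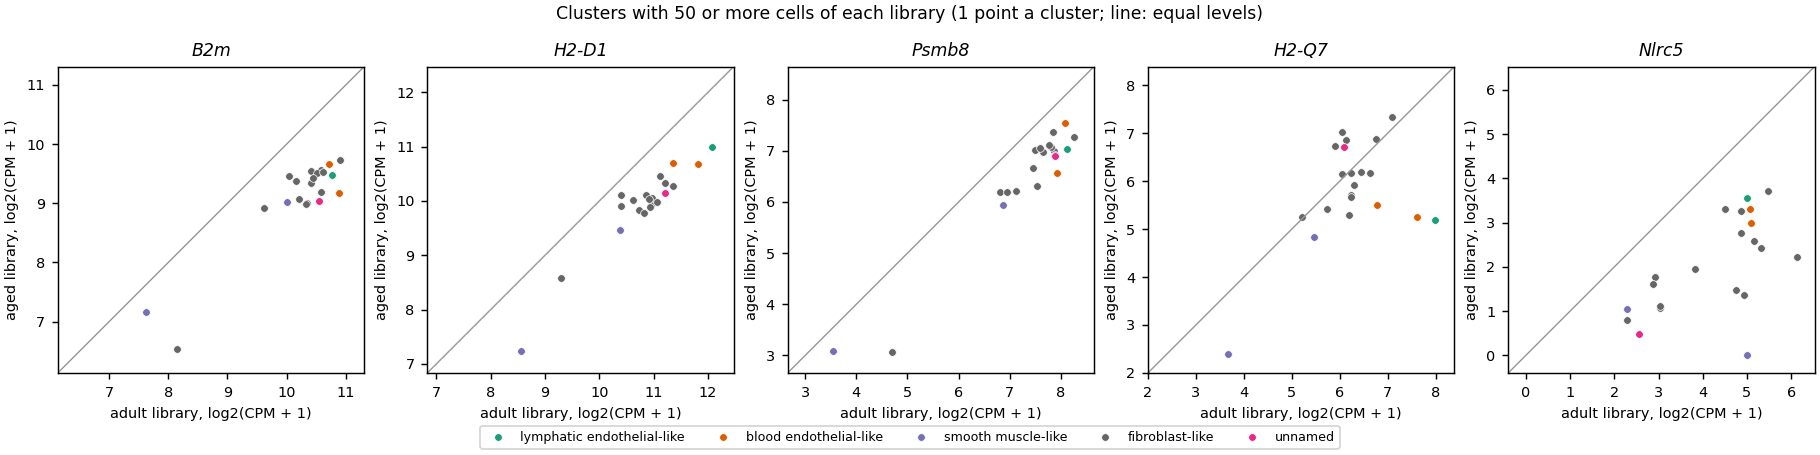
Aged against adult level, as log2(CPM + 1), of 5 members in the 21 clusters with 50 or more cells of each library, coloured by class; the line marks equal levels. B2m, H2-D1, Psmb8 and Nlrc5 lie below the line in 21 of 21 clusters, while H2-Q7 crosses it, with a ratio of 0.98 in the cluster led by Myoc and Ccn5 and -2.81 in that led by Spp1 and Prox1.

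Within a library, members' levels over clusters were correlated to unequal degrees. These correlations are descriptions over 25 aged and 24 adult clusters with 50 or more cells, which share library and depth. B2m and Psmb8 correlated at r = 0.95 over aged and 0.99 over adult clusters, and H2-K1 and H2-D1 at 0.97 aged and 0.98 adult. H2-Q6 and H2-Q7 correlated at 0.43 aged and 0.90 adult. B2m and Nlrc5 correlated at 0.16 aged and 0.17 adult. Over the 49 clusters of both libraries, the genes outside the 10 whose log2(CPM + 1) was most like that of B2m, of 9926 ranked, were Bst2 (r = 0.86), Tap2 (0.84), H2-M3 (0.84), H2-T22 (0.82) and Arrdc4 (0.81). For Psmb8 they were H2-M3 (0.88), Thbd (0.87), Arrdc4 (0.85), Ly6e (0.85) and Bst2 (0.84). For Nlrc5 they were 9930111J21Rik2 (0.77), ENSMUSG00000095041 (0.76), Trim69 (0.75), Herc6 (0.75) and Parp14 (0.71). Since these 49 clusters span both libraries, a gene lower in the aged library can rank high through that difference alone. These ranks thus do not separate likeness over cell types from a shared difference between libraries.

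Among single cells B2m was lower over most of the distribution. Each cell was thinned to 4000 UMIs, leaving out shallower cells (154 aged and 141 adult fibroblast-like cells). Fibroblast-like cells then held a mean of 2.54 B2m UMIs in the aged library (median 2, upper quartile 4) and 5.36 in the adult library (median 5, upper quartile 7). In the aged library 14.4% of these cells reached the adult median, against 52.8% in the adult library. In lymphatic endothelial-like cells 15.1% of aged cells reached the adult median, against 50% of adult cells, and in blood endothelial-like cells 5.56% of aged against 51.1% of adult cells. In smooth muscle-like cells, where the adult median was 1 UMI, 48.5% of aged and 65.1% of adult cells reached it. There the share counts every cell with any B2m UMI, so it cannot be compared with the other classes. The mean in that class was 0.943 B2m UMIs in aged and 2.36 in adult cells. B2m and H2-K1 UMIs of a cell correlated at r = 0.11 over 5737 aged and 0.43 over 5595 adult fibroblast-like cells. These values describe cells that share a library. The variance over the mean, which is 1 for counting error alone, was 1.43 aged and 2.33 adult for B2m. For H2-K1 it was 1.38 aged and 2.04 adult. Aged counts thus lay nearer to counting error, which lowers r, so both values cannot be compared between libraries. B2m and the standard subunit Psmb5 gave 0.0034 aged and 0.0080 adult. Psmb5 was close to counting error alone, at 1.06 aged and 1.02 adult, so its low r cannot serve as a contrast.

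**Figure D4:**
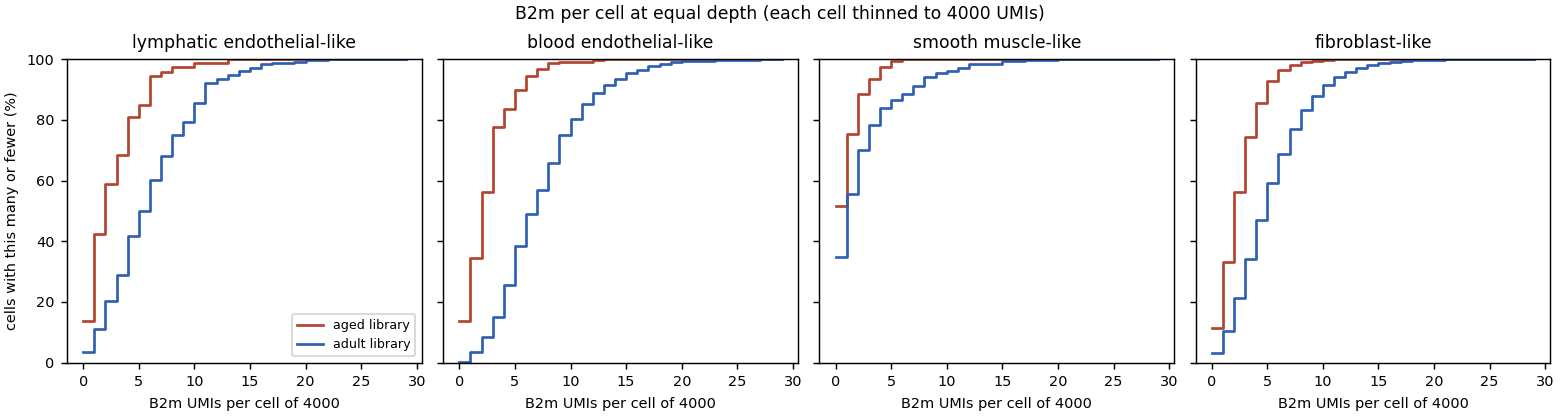
Cumulative share of cells (percent) by their number of B2m UMIs after thinning each cell to 4000 UMIs, for 4 cell classes; the lines are the aged and the adult library. The aged line lies to the left in each class, with 14.4% of aged and 52.8% of adult fibroblast-like cells at or above the adult median of 5 UMIs.

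Nlrc5 UMIs were found in 1.10% of thinned aged (0.84% to 1.40%, exact Clopper-Pearson) and 7.67% of thinned adult fibroblast-like cells (6.98% to 8.40%), and in 3.23% and 19.3% of these cells before thinning, at median depths of 12486 aged and 13373.5 adult UMIs. No cell type present is known to lack Nlrc5, so the share that free RNA gives was not measured. Cells with and without an Nlrc5 UMI were compared at equal depth. Aged cells with one (63) held a mean of 3.29 B2m UMIs and those without (5674) 2.53. Adult cells with one (429) held 6.34 and those without (5166) 5.27. H2-K1, H2-D1, Psmb8, Psmb9 and Tap1 also had higher means in cells with one, in both libraries. In aged cells so did the standard subunit Psmb5, at 0.556 with and 0.434 without, while H2-Q7 was lower, at 0.159 and 0.318. The higher aged means were thus not particular to class I genes. In adult cells Psmb5 was at 0.319 with and 0.371 without, and H2-Q7 at 0.403 and 0.295. The mean was 0.0117 Nlrc5 UMIs per aged and 0.0926 per adult cell, so a cell without one may still express the gene. The part of Nlrc5 in the B2m difference between libraries was not tested. Iigp1, an interferon-induced GTPase, averaged 2.14 UMIs in aged cells with Nlrc5 and 0.573 in those without, and 5.26 and 1.60 in adult cells.

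Other genes of the pathway were read from lists, and most of the constitutive machinery was at like levels in both libraries. Among other class I heavy chains, 3 of 5 measured genes were lower in lymphatic endothelial-like cells, 4 of 8 in blood endothelial-like, 1 of 3 in smooth muscle-like and 3 of 8 in fibroblast-like cells, and none was higher by 1.5-fold. For these and the list counts below, the shares lower over all measured genes were 9.32%, 5.04%, 10.5% and 3.76% in that order of classes. H2-T22 was at 9.60 CPM in aged and 21.8 CPM in adult fibroblast-like cells, and H2-Q4 at 71.7 CPM aged and 87.6 CPM adult. Fcgrt, the IgG receptor that also pairs with B2m, was at 296 CPM aged and 246 CPM adult there. Of the peptide loading genes, Tap2 was lower in fibroblast-like cells (26.2 CPM aged, 44.0 CPM adult), as were Tap2 and Tapbpl in blood endothelial-like cells, and none of the 6 measured was in lymphatic endothelial-like or smooth muscle-like cells. Tapbp, which bridges the transporter and the heavy chain, was at 175 CPM in aged and 181 CPM in adult fibroblast-like cells.

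The proteasome differed in its inducible subunits Psmb8 and Psmb9 but in no other listed subunit by 1.5-fold. The third inducible catalytic subunit, Psmb10, was at 88.1 CPM in aged and 109 CPM in adult fibroblast-like cells (-0.30, -0.35 to -0.25) and at 97.9 CPM aged and 139 CPM adult in blood endothelial-like cells (-0.51, -0.72 to -0.30). Psmb5, which Psmb8 replaces, was at 108 CPM aged and 91.9 CPM adult in fibroblast-like cells (0.23, 0.18 to 0.27) and within 1.5-fold in 21 of 21 clusters. Psmb6 was at 144 CPM aged and 126 CPM adult in fibroblast-like cells. None of the other core subunits measured (12 in lymphatic endothelial-like cells, 13 in each other class) was lower or higher in any class, nor was any of the standard catalytic subunits, and the core list had medians between 0.02 and 0.14 log2 units.

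The factors that act with Nlrc5 at class I promoters were not lower in 3 of the classes. In fibroblast-like cells none of 6 measured genes was called, and Creb1 was at 73.3 CPM aged and 73.7 CPM adult. In lymphatic endothelial-like cells Rfxap, a subunit of the RFX complex, was at 16.6 CPM aged and 33.4 CPM adult (-0.97, -2.21 to 0.02), and Nfya and Nfyb were also lower by 1.5-fold, each with an interval that reaches above 0. Of the measured interferon receptor and signal genes, 1 of 10 was lower in lymphatic endothelial-like, 0 of 11 in blood endothelial-like, 5 of 12 in smooth muscle-like and 3 of 13 in fibroblast-like cells, and no receptor was lower in any class. Socs1, a feedback inhibitor of the signal, was at 66.5 CPM in aged and 124 CPM in adult fibroblast-like cells, and Irf1 was at 250.2 CPM in aged and 565 CPM in adult smooth muscle-like cells. In lymphatic endothelial-like cells Irf1 was at 73.9 CPM aged and 115 CPM adult and Ifnar1 was higher (0.62, -0.23 to 1.47).

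Many interferon response genes and the measured class II genes were lower beside the members. Of the measured response genes, 5 of 5 were lower in lymphatic endothelial-like cells, 4 of 8 in blood endothelial-like, 8 of 9 in smooth muscle-like and 8 of 11 in fibroblast-like cells. The shares lower over all measured genes were 9.32%, 5.04%, 10.5% and 3.76% in that order. In blood endothelial-like cells Isg15 was at 55.8 CPM aged and 54.8 CPM adult, and Gbp5 at 31.3 CPM aged and 35.1 CPM adult. Iigp1 was at 72.0 CPM in aged and 489.7 CPM in adult lymphatic endothelial-like cells and at 141 CPM aged and 459 CPM adult in fibroblast-like cells. Irf7 was at 29.5 CPM aged and 29.5 CPM adult in fibroblast-like cells. Of the class II genes 4 of 4 were lower in each endothelial class, none was measured in smooth muscle-like cells, and in fibroblast-like cells H2-Ab1 alone was measured and was lower, at 0.992 CPM aged and 14.7 CPM adult (75 and 1157 UMIs). Their part in the class I result was not tested.

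**Figure D5:**
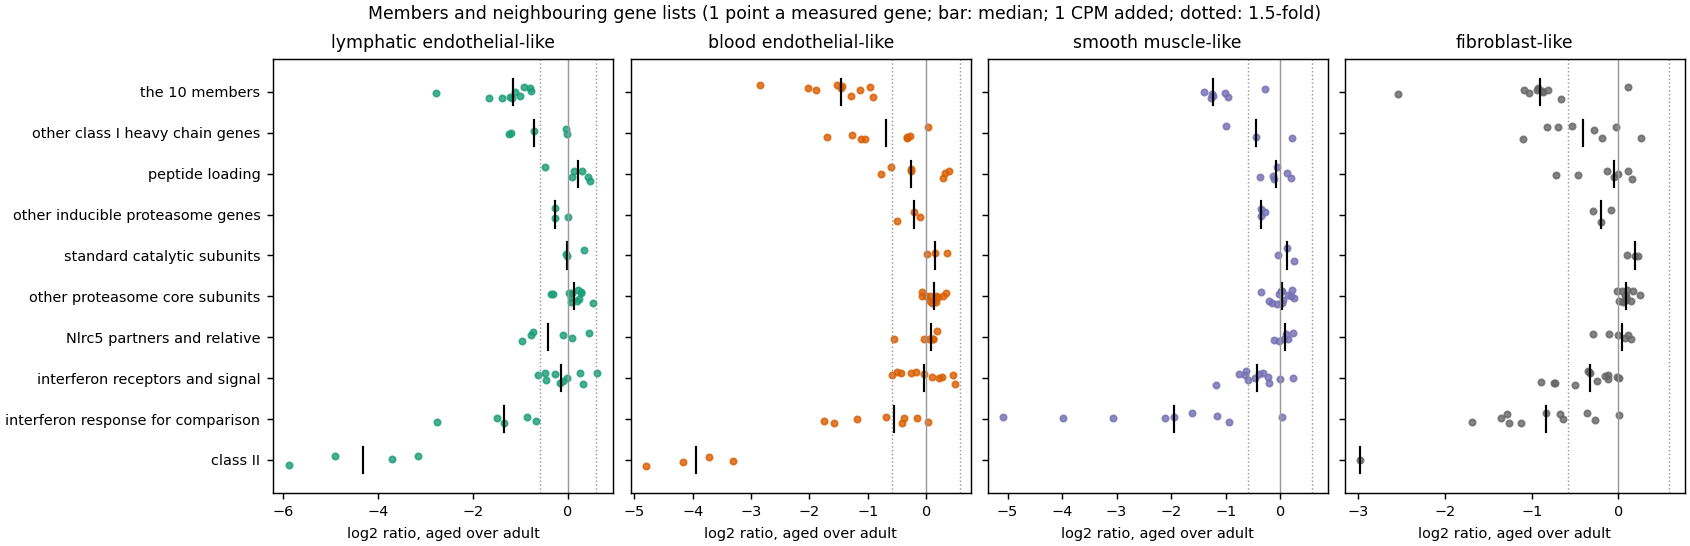
Log2 ratio of aged over adult CPM (1 CPM added) of the members and of the neighbouring gene lists in 4 cell classes; points are measured genes, bars are list medians and dotted lines mark 1.5-fold. The standard catalytic and other core subunits lie within 1.5-fold in each class, while 8 of 11 measured interferon response genes in fibroblast-like cells are lower.

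The shared barcodes bear on all values above. Read in the aged table, the shared cells had B2m at 1279.8 CPM, against 626 CPM in the aged cells of that table alone and 1376 CPM for the same shared cells in the adult table. Between both readings of the shared cells the members' ratios ran from -0.22 for H2-T23 to 0.11 for Psmb8, all under 1.5-fold. Their median depth was 6294 UMIs as read in the aged table and 12434 UMIs as read in the adult one, and the cause of that difference was not tested. A check in the other direction rests on few cells. Only 189 fibroblast-like cells carried a barcode of the adult table alone, with a median of 3504 UMIs. They held B2m at 898 CPM and H2-D1 at 1061 CPM, against 638 CPM and 1014 CPM in aged cells, and Nlrc5 at 32.1 CPM against 3.23 CPM. With these as the adult group, the members' median ratio was -0.24, Nlrc5 alone was lower by 1.5-fold, and Tap1 was at 14.1 CPM aged and 13.96 CPM adult. Of these cells 46 fell in the Timp1 and Cpz cluster, where B2m was at 538 CPM in aged cells, 1008 CPM in adult cells of the adult table alone and 1193 CPM in the shared adult cells. Other members did not follow B2m there: H2-D1 was at 1409 CPM in aged cells and 1439.5 CPM in adult cells of the adult table alone, and H2-T23 (110.1 CPM aged, 97.9 CPM adult), H2-Q6 (30.3 CPM aged, 5.76 CPM adult), H2-Q7 (116 CPM aged, 63.3 CPM adult) and Tap1 (12.03 CPM aged, 5.76 CPM adult) had higher values in aged cells. For H2-Q6 and Tap1 5.76 CPM is the level of 1 UMI in these 46 cells. Another 35 of the 189 cells fell in the shallow cluster led by 1500015L24Rik, which held 58 aged cells. There Nlrc5 was at 68.7 CPM and B2m at 189 CPM in the 35 cells, against 3.67 CPM and 91.7 CPM in aged cells. The part of depth and of cluster makeup in the smaller ratio was not tested.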

How the data were processed

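Single-cell RNA was measured in 1 pooled library of aged mice (93 weeks) and 1 of adult mice (12 weeks). The authors deposited natural log values per gene and cell, which by the values are ln(1 + UMIs scaled to 10000 per cell). Seurat 5.0.3 and the builds GRCm39 and mm10 are named in the submitters' processing notes, without a role for either build; for the aligner, cell filters and doublets, steps were not given in the sources used here. UMIs were recovered from these values (100% within 0.01 of a whole number). Aged cells with a barcode of the adult table were left out. Cells of both libraries were clustered together without class I, class II and interferon genes (349 genes left out, 2000 variable genes, 30 principal components, 15 neighbours, Leiden resolution 2; scikit-learn 1.9.0, igraph 0.11.9), and classes were named from marker lists. No doublet caller was run; an alternative left out 958 cells with 3 or more markers of another class. UMIs were summed per class and library, and ratios of CPM were formed after adding 1 CPM; a gene was measured with 50 or more UMIs and 10% or more of the cells of a library holding one. Intervals (95%) are exact binomial or Poisson (scipy 1.17.1) and cover counting error only. With 1 library per age, no p-value was computed. The members, the gene lists and the rule for named genes (the 10 members, genes of the lists, and the 5 genes nearest in pattern to B2m, Psmb8 and Nlrc5) were chosen with earlier results of these data known. The ratio and interval computation was tested on simulated data. Values of 1 gene of these lists are not reported here.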

Additional observations from a re-analysis of the deposited data

Results flagged for a closer look

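H2-Q7 moved in opposite directions between ages in different clusters. On the log2 scale, aged over adult, its ratio was 0.98 in the fibroblast-like cluster led by Myoc and Ccn5, from 536 aged and 187 adult UMIs, and -2.81 in the lymphatic endothelial-like cluster led by Spp1 and Prox1, from 13 aged and 272 adult UMIs. With 1 library per age the difference between these clusters was not tested.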

How the results depend on the processing

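No paired analysis was possible because each age had 1 library, and leaving out a replicate could not be done for the same reason. With all deposited cells kept, the shared barcodes counted under both ages, the members' median log2 ratio was -0.39 in lymphatic endothelial-like, -0.57 in blood endothelial-like, -0.65 in smooth muscle-like and -0.53 in fibroblast-like cells, and 0, 4 and 2 members were lower by 1.5-fold in lymphatic endothelial-like, blood endothelial-like and fibroblast-like cells. Aged and adult groups then share cells. In smooth muscle-like cells B2m, H2-D1 and Nlrc5 were lower by 1.5-fold in all 14 settings, this one among them. With clusters weighted equally the blood endothelial-like median was -1.16. In smooth muscle-like cells 3 members of 3 with enough UMIs were lower without cells holding markers of another class, and 5 of 7 with adult cells as read in the aged table. The fibroblast-like median was -0.87 with cells weighted equally, -0.86 centred on the median of all genes, -0.79 with 10 CPM added, -1.04 in female and -0.84 in male cells, and -0.86 without clusters under 50 cells of either library. Without shared barcodes in either table it was -0.24 with 1 member lower, and Tap1 turned to 0.016; the cause was not tested. The last 2 settings and the reading in the aged table were chosen after seeing the data. The B2m ratio stayed below 0 in all settings run in each class, between -1.13 and -0.49 in fibroblast-like cells, while H2-Q7 in smooth muscle-like cells ran from -1.31 to 0.75. Low UMI counts limit Tap1 and Nlrc5 outside fibroblast-like cells.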
